A study of Mus musculus with 12 samples.

Results

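The BCL2 family decides whether a cell keeps its mitochondria intact or opens them and dies. The 10 genes described here were chosen by name, all 10 were among the 32699 gene symbols of the count table, and all 10 passed the filter on low counts. They are the survival genes Bcl2, Bcl2l1 (BCL-XL) and Mcl1, the pore-forming genes Bax and Bak1, and the BH3-only genes Bcl2l11 (BIM), Bid, Bad, Bik and Pmaip1 (NOXA). The RNA came from naive mouse CD4+ T cells that anti-CD3 and anti-CD28 antibodies had activated in vitro. Keap1 knockout cells (KKO) and wild-type cells (WT) were sampled after 48 h and after 24 h, with 3 libraries in each of the 4 groups. All groups shared the antibodies, and no unstimulated cells are analysed here. The labels give neither the Keap1 allele, nor any driver of its deletion, nor the strain, sex or age of the mice, nor whether replicates were separate mice or cultures, so p-values measure the spread between these libraries. That spread includes mice of both sexes, as their transcripts show, and its other part may be technical.

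As background, survival proteins hold pore formers and BH3-only proteins in check at the outer mitochondrial membrane. BH3-only proteins carry a short BH3 helix that fits a groove on the survival proteins, and some of them also activate BAX and BAK directly. Free BAX and BAK then form pores that release cytochrome c, which starts the caspases. In T cells BCL2 is known for the survival of resting and memory cells, BCL-XL for survival after costimulation through CD28, and BIM for removing activated cells. KEAP1 marks the transcription factor NRF2 for degradation, so NRF2 accumulates in cells without KEAP1.

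The BH3 segment is what these proteins share, and its coding sequence is shown for the 9 members for which it is given here. Each line holds 45 bases of the coding strand from the GENCODE M21 annotation of mouse build GRCm38, with the 6 core codons in capitals. The core begins with a leucine codon, has any 3 codons next, then a codon for a small residue, and ends with an aspartate codon. The search also asked for aspartate, glutamate or glycine in the next codon, and each of the 9 coding sequences held 1 match.
Bcl2: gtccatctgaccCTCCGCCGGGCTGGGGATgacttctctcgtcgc
Bcl2l1: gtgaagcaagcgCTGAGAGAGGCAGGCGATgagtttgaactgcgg
Mcl1: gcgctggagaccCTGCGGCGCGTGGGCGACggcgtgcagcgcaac
Bax: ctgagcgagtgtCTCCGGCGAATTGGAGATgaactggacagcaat
Bak1: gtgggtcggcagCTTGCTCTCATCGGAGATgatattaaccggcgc
Bcl2l11: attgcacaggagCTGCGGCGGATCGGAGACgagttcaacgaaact
Bid: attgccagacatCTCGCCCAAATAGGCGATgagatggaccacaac
Bad: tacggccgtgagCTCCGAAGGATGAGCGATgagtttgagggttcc
Bik: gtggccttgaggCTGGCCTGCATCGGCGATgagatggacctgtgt

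The small residue was glycine in 8 of the 9 cores and serine in 1, that of Bad. No core was repeated between genes: 9 distinct sequences encoded the same motif, and the closest pairs, Bcl2l11 with Mcl1 and Bcl2l11 with Bax, shared 14 of 18 bases. The segments lie at chr1:106712569-106712613 (minus strand) for Bcl2, chr2:152829691-152829735 (minus strand) for Bcl2l1, chr3:95659424-95659468 (plus strand) for Mcl1 and chr7:45465991-45466035 (minus strand) for Bax. Those of Bak1 and Bcl2l11 lie at chr17:27022525-27022569 (minus strand) and chr2:128147138-128147182 (plus strand). The others are at chr6:120897283-120897327 (minus strand) for Bid, chr19:6950780-6950824 (plus strand) for Bad and chr15:83543072-83543116 (plus strand) for Bik.

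Library totals were 17.8 to 32.6 M (mega) expected counts. Levels below are in CPM (counts per M of library total, after TMM scaling), and levels of different genes are compared only as CPM per kb of annotated exon. Keap1 had 21.2 ± 1.21 CPM in KKO and 126 ± 5.16 CPM in WT at 48 h, and 16.6 ± 0.906 CPM in KKO and 107 ± 1.48 CPM in WT at 24 h (SD, n = 3 each), so the libraries matched their genotype labels. Libraries of both sexes occurred in each group, but their balance differed with genotype. The male share is the Y-linked level over the mean of same-time libraries with Y-linked transcripts only, at most 1. It was 1, 0.0169 and 0.89 in KKO and 0.0013, 0.0029 and 0.919 in WT replicates 1 to 3 at 48 h. At 24 h it was 0.845, 0.0025 and 1 in KKO and 0.000966, 0 and 0.959 in WT replicates 1 to 3. In 2 KKO libraries the readings were mixed: replicate 3 of 48 h had 105 CPM of Xist and 149 CPM of Y-linked transcripts, and replicate 1 of 24 h had 76.2 CPM of Xist and 125 CPM of Y-linked transcripts, while each of the other 10 libraries held chiefly one kind. KKO replicate 2 at 48 h, which held Xist only, was further from the other KKO libraries of that time than they were from each other. The chi-square over degrees of freedom was 24.4 and 18.8 against them and 7.64 between them. Pairs within the other groups had similar or lower values, at 14.9 to 22.5 in KKO at 24 h, 6.13 to 15.1 in WT at 48 h and 5.98 to 10.9 in WT at 24 h. Summed markers of T cells (10 of 10 in the file) were 2820 to 3200 CPM in KKO and 2800 to 2990 CPM in WT at 48 h, and 2920 to 2990 CPM in KKO and 3120 to 3250 CPM in WT at 24 h.

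At 48 h the survival genes Bcl2 and Mcl1 were higher in KKO than in WT cells. These were the only calls among the members: 2 of 10, both higher, where 24.3% of all 13196 tested genes were called, 12.4% higher and 11.9% lower. The count fell to 0 when KKO replicate 1 or 3 of 48 h was left out, and reached 4 when KKO replicate 2 of 48 h was. It was 1 when WT replicate 1 or 2 of 48 h was left out, KKO replicate 1 or 3 of 24 h, or WT replicate 3 of 24 h. A gene was called at an adjusted p under 0.05 in edgeR's 2-sided quasi-likelihood test with Benjamini-Hochberg adjustment over all tested genes. The median log2 fold change of the 10 members was -0.07, against -0.004 over all tested genes, and the median size of the change without its sign was 0.22 against 0.19. In bulk RNA, a change in the number of cells of a type and a change in RNA per cell cannot be told apart.

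**Figure D1:**
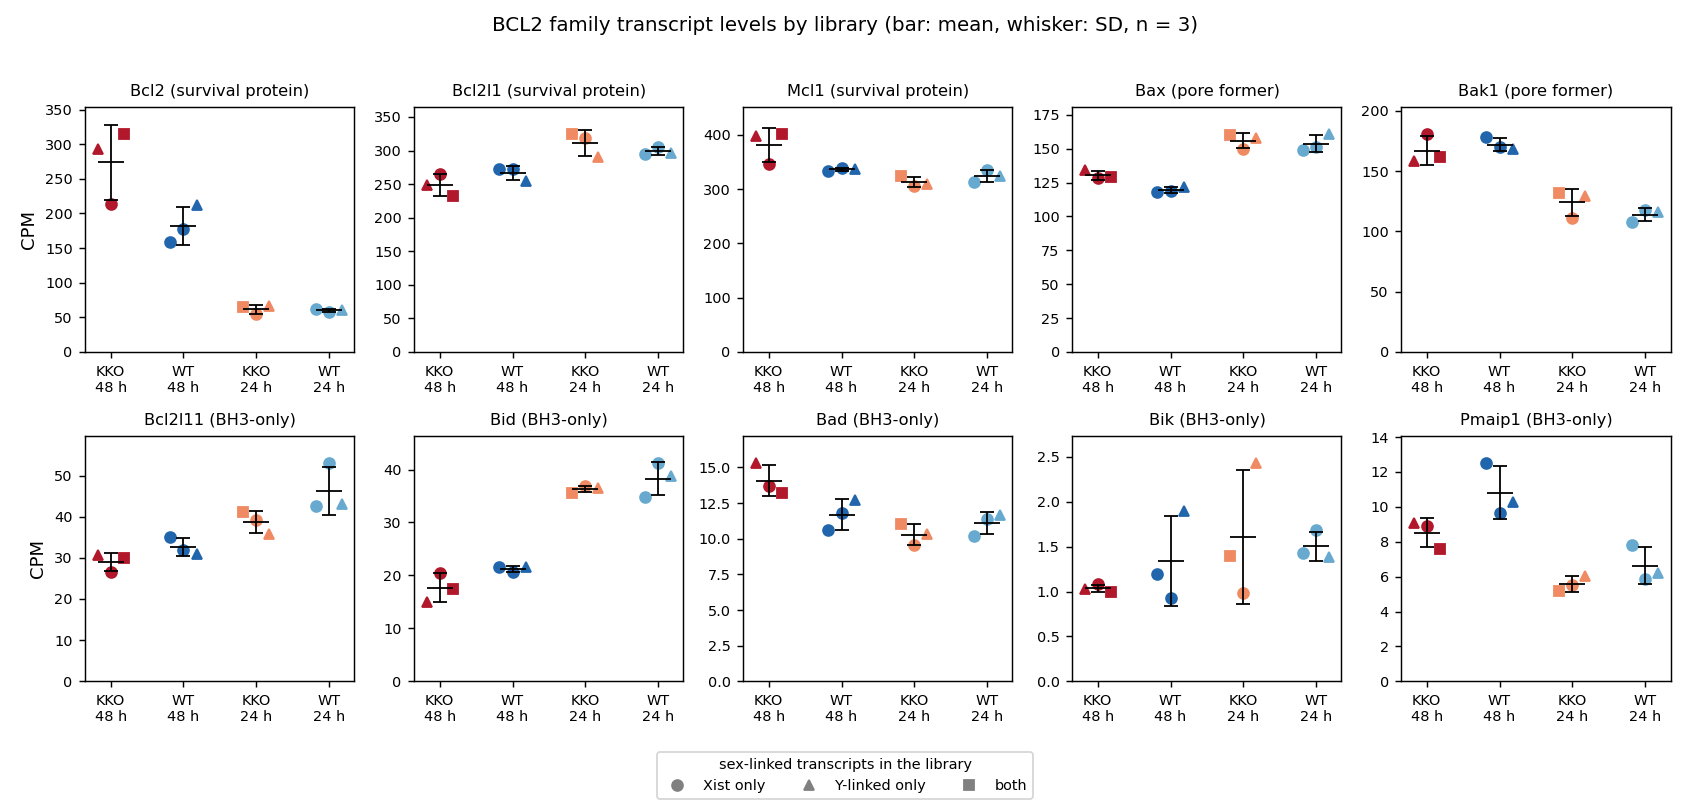
Levels of the 10 genes in each library in CPM (vertical axes, linear, starting at 0) for KKO and WT cells at 48 h and at 24 h. Points are libraries, with shapes for the sex-linked transcripts they held, and bars and whiskers are the mean and SD of 3 libraries. Bcl2 stands at 213 to 315 CPM in KKO and 158 to 212 CPM in WT at 48 h, far above both groups at 24 h.

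Bcl2, the survival gene named for the lymphoma in which it was found, had 293, 213 and 315 CPM in KKO replicates 1 to 3 at 48 h, against 158, 177 and 212 CPM in WT replicates 1 to 3. The lowest KKO library lay just above the highest WT library. The log2 fold change was 0.59 ± 0.14 (SE), or 1.5-fold, with an adjusted p of 0.0116 in edgeR's test. Without KKO replicate 1 or KKO replicate 3 at 48 h the log2 fold change was 0.54 or 0.47 and the call was lost (adjusted p = 0.0687 or 0.0535). Without KKO replicate 2 at 48 h it was 0.72, with an adjusted p of 0.000346. Without the pair of libraries with mixed readings it was 0.47, with an adjusted p of 0.0734.

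The genotypes were also set side by side within the sex-linked readings at 48 h. Among libraries with Y-linked transcripts only, Bcl2 had 293 CPM in the KKO library and 212 CPM in the WT library. Among libraries with Xist only, it had 213 CPM in the KKO library against a mean of 168 CPM in the pair of WT libraries. The ratios of KKO over WT were 1.38 and 1.27 for Bcl2, and 1.18 and 1.03 for Mcl1, with no test at these numbers of libraries. Within each genotype, Bcl2 was higher in the library with Y-linked transcripts only than in those with Xist only, which was not tested. With the male share of each library as a covariate, an alternative chosen after seeing the data, the log2 fold change of Bcl2 was 0.48, with an adjusted p of 0.00129.

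Markers of some other cells moved with genotype beside these results. The summed B cell markers (10 of 10 in the file, none at 0 in a group) were 53.1 to 79.7 CPM in KKO and 26.1 to 36.4 CPM in WT at 48 h, and 50.4 to 70.0 CPM in KKO and 25.2 to 31.8 CPM in WT at 24 h. Macrophage and dendritic cell markers (10 of 10 in the file) summed to 5.66 to 9.88 CPM in KKO and 2.99 to 4.79 CPM in WT at 48 h. Most of this was Cd68 (mean 6.28 CPM in KKO and 2.85 CPM in WT) and Flt3 (1.7 and 0.441 CPM). The defining markers Fcgr1, Siglech and Clec9a were at 0 in both groups, and Csf1r, Adgre1 and Lyz2 had at most 0.0645 CPM. At 24 h the sums were 3.51 to 4.89 CPM in KKO and 3.11 to 4.14 CPM in WT, which overlapped. CD8 T cell markers (2 of 2) summed to 12.7 to 13.4 CPM in KKO and 8.32 to 10.6 CPM in WT at 48 h, and to 9.36 to 10.8 CPM in KKO and 7.04 to 8.11 CPM in WT at 24 h.

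Natural killer cell markers (6 of 6, none at 0 in a group) overlapped between genotypes, at 3.11 to 4.25 CPM in KKO and 4.13 to 5.87 CPM in WT at 48 h, and at 3.53 to 5.32 CPM in KKO and 2.34 to 4.14 CPM in WT at 24 h. Erythroid markers (4 of 6 in the file) summed to 1.13 to 1.43 CPM in KKO and 0.221 to 1.09 CPM in WT at 48 h, and to 3.66 to 5.3 CPM in KKO and 1.73 to 5.18 CPM in WT at 24 h, overlapping only at 24 h. The part of these cells in the changes of the BCL2 family was not tested.

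Mcl1, which encodes a short-lived survival protein, had 397, 346 and 402 CPM in the KKO libraries at 48 h, against 334, 339 and 337 CPM in the WT libraries. All KKO libraries lay above all WT libraries, KKO replicate 2 by the least. The log2 fold change was 0.18 ± 0.06 (SE), with an adjusted p of 0.0471 in edgeR's test, close to the threshold. The call was lost in 8 of the 12 fits that left out 1 library, with an adjusted p of 0.175 without KKO replicate 1 and 0.192 without KKO replicate 3 at 48 h. It was 0.103, 0.093 and 0.0676 without WT replicates 1, 2 and 3 at 48 h. Libraries of the other time also ended it, with 0.0504 and 0.0695 without KKO replicates 1 and 3 at 24 h and 0.0551 without WT replicate 3 at 24 h. The log2 fold change in these 8 fits was 0.14 to 0.18.

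Bcl2l1, whose product BCL-XL is the costimulation-dependent survival protein, had 248, 265 and 233 CPM in KKO and 272, 272 and 254 CPM in WT cells at 48 h. The groups overlapped, and the log2 fold change of -0.10 ± 0.06 (SE) did not pass (adjusted p = 0.278). Without KKO replicate 2 at 48 h it was -0.16, with an adjusted p of 0.0445.

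Neither pore former was called by genotype at 48 h. Bax had 134, 128 and 129 CPM in KKO and 118, 119 and 122 CPM in WT cells at 48 h. Its KKO libraries lay above its WT libraries by a narrow margin, and the log2 fold change of 0.12 ± 0.05 (SE) did not pass (adjusted p = 0.0992). Upper-quartile scaling and the stricter filter on low counts brought it past the threshold (adjusted p = 0.0346 and 0.048). Bak1 had 158, 181 and 162 CPM in KKO and 178, 170 and 168 CPM in WT cells, which overlapped (log2 fold change -0.04, adjusted p = 0.685).

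None of the 5 BH3-only genes was called at 48 h. Bcl2l11, whose product BIM binds every survival protein, had 30.6, 26.6 and 29.9 CPM in KKO and 35.1, 31.8 and 31.0 CPM in WT cells. Bid, whose product is cut by caspase-8 and carries death receptor signals to mitochondria, had 15, 20.5 and 17.5 CPM in KKO and 21.5, 20.6 and 21.6 CPM in WT cells. In both genes all KKO libraries lay below all WT libraries, though in Bid the gap between KKO replicate 2 and the WT group was small. Their log2 fold changes were -0.17 ± 0.10 and -0.26 ± 0.10 (SE), with adjusted p of 0.213 and 0.0637. Without KKO replicate 2 at 48 h, Bid stood at -0.40 with an adjusted p of 0.00239.

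Bad, whose product is held inactive by phosphorylation through growth factor kinases, had 15.3, 13.7 and 13.2 CPM in KKO and 10.6, 11.8 and 12.7 CPM in WT cells at 48 h. Pmaip1, whose product NOXA binds MCL1, had 9.10, 8.88 and 7.58 CPM in KKO and 12.5, 9.64 and 10.3 CPM in WT cells. Neither gene's groups overlapped: Bad was on the higher side in KKO and Pmaip1 on the lower side. The log2 fold changes were 0.27 ± 0.10 and -0.34 ± 0.14 (SE), with adjusted p of 0.0697 and 0.0857. Bad passed without WT replicate 3 at 48 h (0.32, adjusted p = 0.0429) and with upper-quartile scaling (0.29, adjusted p = 0.0493).

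Bik, a BH3-only gene of the endoplasmic reticulum, was barely detected, with 1.03, 1.08 and 1 CPM in KKO and 1.2, 0.928 and 1.90 CPM in WT cells at 48 h. At this level the interval was wide, with a log2 fold change of -0.37 and a 95% interval of -1.13 to 0.39. In all, KKO and WT libraries did not overlap at 48 h in 7 of 10 members, where 33.2% of all tested genes did not overlap. Of these 7, Bcl2, Mcl1, Bax and Bad lay on the higher side in KKO, and Bcl2l11, Bid and Pmaip1 on the lower side.

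**Figure D2:**
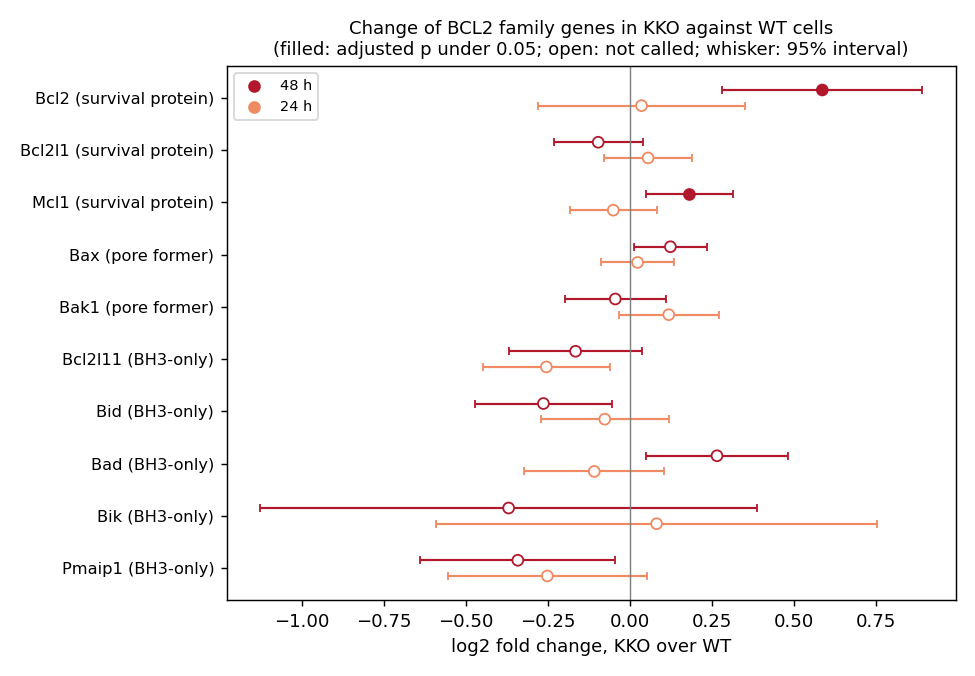
Log2 fold change of KKO over WT (horizontal axis) for each gene at 48 h and at 24 h, with 95% intervals as whiskers. Filled points passed an adjusted p of 0.05, which were Bcl2 (0.59) and Mcl1 (0.18) at 48 h, and the 24 h points lie near 0 for most genes.

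At 24 h no member was called between genotypes in edgeR's test (0 of 10), where 2.33% of all tested genes were called, 1.89% higher and 0.432% lower. DESeq2 and limma-voom also called 0 of 10, and 1 member, Bcl2l11, had an unadjusted p under 0.05. Bcl2l11 had 41.1, 39.2 and 35.9 CPM in KKO and 42.5, 53.0 and 43.1 CPM in WT cells. All KKO libraries lay below all WT libraries, the only member of the 10 for which this held, where 19.4% of all tested genes did not overlap. The log2 fold change was -0.26 ± 0.09 (SE), with an adjusted p of 0.224.

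Bcl2 had 64.4, 54.1 and 66.4 CPM in KKO cells at 24 h, against 62.2, 57.4 and 60.9 CPM in WT cells. The log2 fold change was 0.03, with a 95% interval of -0.28 to 0.35. Mcl1 had 324, 306 and 310 CPM in KKO and 314, 336 and 324 CPM in WT cells, with an interval of -0.18 to 0.08. Both genes' groups overlapped. Intervals of the others at 24 h reached from -0.56 at the lowest, in Pmaip1, to 0.27 at the highest, in Bak1, apart from Bik at -0.59 to 0.75.

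The difference of the genotype effects, 48 h minus 24 h, was tested directly. In edgeR's test 0 of 10 members were called, where 4.18% of all tested genes were called (1.46% with a higher and 2.72% with a lower effect at 48 h), and 3 members had an unadjusted p under 0.05. These were Bcl2 with a difference of 0.55 ± 0.20 (SE, adjusted p = 0.134), Mcl1 with 0.23 ± 0.09 (SE, adjusted p = 0.138) and Bad with 0.38 ± 0.14 (SE, adjusted p = 0.14). DESeq2 called 2 members, Bcl2 and Mcl1, and limma-voom called 0. Without KKO replicate 2 at 48 h, edgeR called 4 members: Bcl2 (0.69, adjusted p = 0.00709), Mcl1 (0.28, adjusted p = 0.00464), Bak1 (-0.24, adjusted p = 0.0451) and Bid (-0.32, adjusted p = 0.0498).

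More members were called between the times than between genotypes. In KKO cells 9 of 10 members changed at 48 h against 24 h, 5 higher and 4 lower, where 67.8% of all tested genes were called, 34.4% higher and 33.4% lower. In WT cells 7 of 10 changed, 3 higher and 4 lower, where 60.8% of all tested genes were called, 31.0% higher and 29.7% lower. Libraries of 48 h and 24 h did not overlap in those 9 members in KKO and those 7 in WT, where 70.4% of all tested genes in KKO and 68.4% in WT did not overlap. A share this near to that of all genes is no result about the family, so only the members' own values are described.

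Bcl2 changed most of the 10 genes in both genotypes. It averaged 274 ± 53.8 CPM at 48 h and 61.6 ± 6.56 CPM at 24 h in KKO cells, and 183 ± 27.4 CPM at 48 h and 60.2 ± 2.49 CPM at 24 h in WT cells (SD, n = 3 each). That was 4.45-fold higher in KKO (adjusted p = 1.09e-07) and 3.04-fold higher in WT cells (adjusted p = 1.62e-06) by edgeR's test. Each library at 48 h held more than any library at 24 h.

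Bcl2l1 moved the other way from Bcl2. It averaged 249 ± 15.9 CPM at 48 h and 311 ± 18.3 CPM at 24 h in KKO cells, and 266 ± 10.5 CPM at 48 h and 300 ± 5.9 CPM at 24 h in WT cells. It fell by 0.32 on the log2 scale in KKO (adjusted p = 0.000333) and by 0.17 in WT cells (adjusted p = 0.0283). The WT call was lost without WT replicate 2 or 3 at 48 h (adjusted p = 0.0573 or 0.14) and without WT replicate 1, 2 or 3 at 24 h (adjusted p = 0.0659, 0.102 or 0.0649), and the log2 change in these fits was -0.18 to -0.13. Mcl1 rose by 0.28 in KKO cells (adjusted p = 0.000895) and had 0.05 with an adjusted p of 0.499 in WT cells, a contrast whose test is the difference of effects given above.

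**Figure D3:**
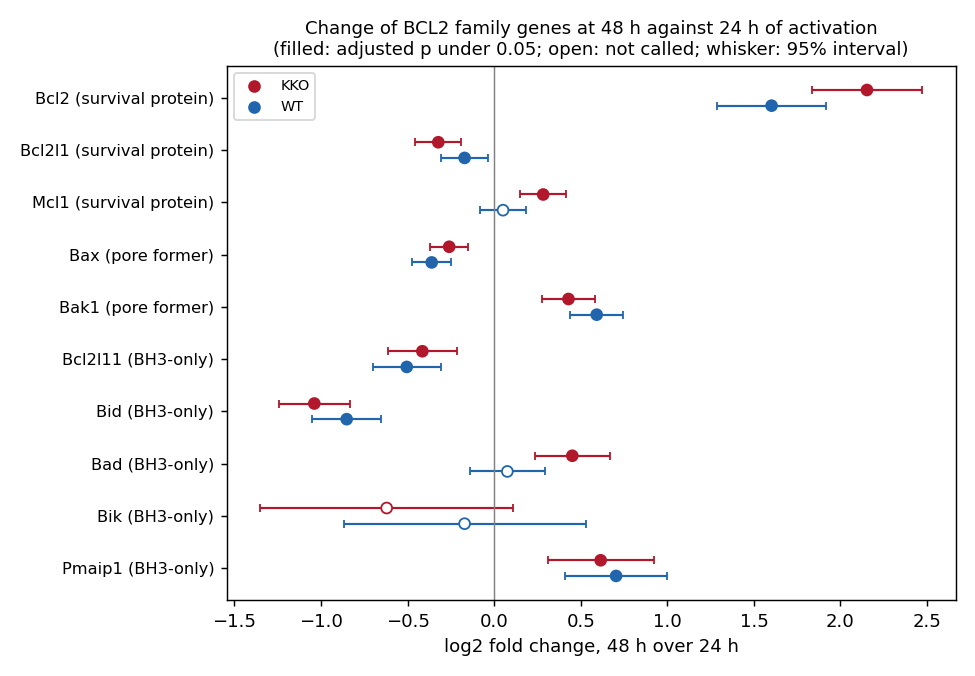
Log2 fold change of 48 h over 24 h (horizontal axis) for each gene in KKO and in WT cells, with 95% intervals as whiskers and filled points for an adjusted p under 0.05. Bcl2 stands at 2.15 in KKO and 1.60 in WT, and Bid at -1.04 in KKO and -0.85 in WT.

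The pore formers moved in opposite directions. Bax averaged 130 ± 3.19 CPM at 48 h and 156 ± 5.29 CPM at 24 h in KKO cells, and 120 ± 1.85 CPM at 48 h and 154 ± 6.7 CPM at 24 h in WT cells. Bak1 averaged 167 ± 12.5 CPM at 48 h and 124 ± 11.1 CPM at 24 h in KKO cells, and 172 ± 5.29 CPM at 48 h and 114 ± 5.16 CPM at 24 h in WT cells. In edgeR's test Bax fell by 0.26 in KKO and 0.36 in WT on the log2 scale (adjusted p = 0.000413 and 2.94e-05), and Bak1 rose by 0.43 and 0.59 (adjusted p = 8.65e-05 and 5.99e-06).

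The BH3-only genes divided as well. Bid had 15 to 20.5 CPM at 48 h and 35.6 to 36.8 CPM at 24 h in KKO cells, and 20.6 to 21.6 CPM at 48 h and 34.9 to 41.2 CPM at 24 h in WT cells. It was 2.06-fold lower at 48 h in KKO (adjusted p = 2.68e-07) and 1.81-fold lower in WT cells (adjusted p = 2.33e-06). Bcl2l11 fell too, by 0.42 in KKO and 0.51 in WT on the log2 scale (adjusted p = 0.00107 and 0.00024).

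Pmaip1 rose in both genotypes, with 7.58 to 9.10 CPM at 48 h and 5.15 to 6.04 CPM at 24 h in KKO cells, and 9.64 to 12.5 CPM at 48 h and 5.85 to 7.82 CPM at 24 h in WT cells. The log2 fold changes were 0.61 and 0.70 (adjusted p = 0.00144 in KKO and 0.000445 in WT). Bad rose in KKO cells by 0.45 (adjusted p = 0.00105), with 0.08 and an adjusted p of 0.532 in WT cells. Bik was not called in either genotype (adjusted p = 0.121 in KKO and 0.673 in WT), and passed in KKO only without KKO replicate 2 at 24 h (-0.86, adjusted p = 0.036).

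Per kb of exon, the order of the genes also differed between the times. At 48 h Mcl1 was highest (112 CPM per kb in KKO and 98.4 in WT), and Bax (82.6 in KKO and 75.8 in WT), Bak1 (69.3 and 71.5) and Bcl2l1 (54.2 and 58.0) came next. Bcl2 was the fifth, at 29.9 CPM per kb in KKO and 19.9 in WT, and no neighbours among these 5 overlapped across libraries. The BH3-only genes Bad (5.49 in KKO and 4.57 in WT), Bid (4.99 and 5.97), Bcl2l11 (3.62 and 4.06) and Pmaip1 (3.12 and 3.96) lay well under them. Among these, Bad with Bid and Bcl2l11 with Pmaip1 overlapped in KKO, and Bad, Bcl2l11 and Pmaip1 all overlapped one another in WT. Bik was last at 0.652 CPM per kb in KKO and 0.843 in WT.

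At 24 h Bax stood at 98.9 CPM per kb in KKO and 97.4 in WT, next to Mcl1 at 91.7 in KKO and 95 in WT, and these neighbours overlapped in WT. Bcl2l1 (67.8 in KKO and 65.3 in WT) and Bak1 (51.5 and 47.4) came next. Bid, at 10.2 in KKO and 10.8 in WT, stood above Bcl2, at 6.73 in KKO and 6.57 in WT. Under Bcl2 came Bcl2l11 (4.82 and 5.76), Bad (4.02 and 4.34), Pmaip1 (2.04 and 2.43) and Bik (1.01 and 0.947), and of these neighbours only Bcl2 and Bcl2l11 overlapped, in WT. These levels rest on the length of all annotated exons, which can exceed the transcripts the cells make.

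Among the 3 survival genes, Bcl2 made up 15.2 ± 2.18% of the summed level per kb in KKO and 11.3 ± 1.64% in WT cells at 48 h, and 4.05 ± 0.46% in KKO and 3.94 ± 0.26% in WT cells at 24 h (SD, n = 3 each). The KKO and WT shares overlapped at 48 h, at 12.8 to 17.0% in KKO and 9.9 to 13.1% in WT. Bcl2l1 made up 27.8 ± 3.47% in KKO and 32.9 ± 1.4% in WT at 48 h, and 40.8 ± 1.41% in KKO and 39.1 ± 0.346% in WT at 24 h. Mcl1 held the largest share of the 3 in all 12 libraries, with group means of 55.2 to 57.0%.

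**Figure D4:**
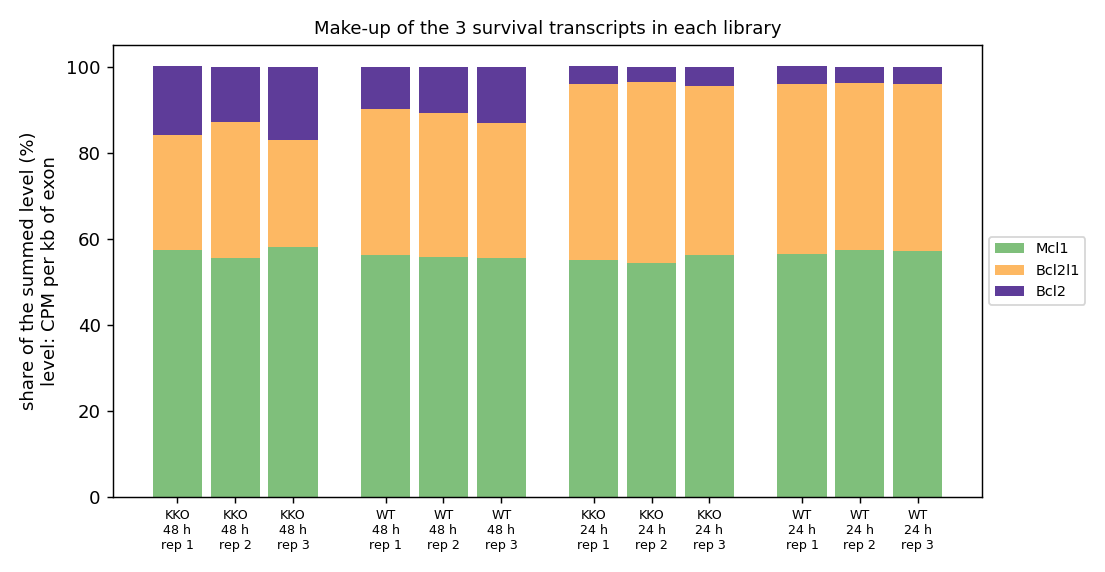
Share of Bcl2, Bcl2l1 and Mcl1 in their summed level (vertical axis, percent of CPM per kb of exon) in each of the 12 libraries, grouped by genotype and time. Bcl2 averages 15.2% in KKO and 11.3% in WT at 48 h, and 4.05% in KKO and 3.94% in WT at 24 h, while the Mcl1 share stays near 56%.

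Ratios within a library set the survival gene Bcl2 beside the death genes, also per kb. Bcl2 over Bcl2l11 was 8.22 ± 1.12 in KKO and 4.95 ± 1.03 in WT cells at 48 h, with ranges of 7.02 to 9.24 and 3.95 to 6 that did not overlap. At 24 h it was 1.40 ± 0.207 in KKO and 1.16 ± 0.181 in WT cells, which overlapped. Bcl2 over Bax was 0.362 ± 0.0693 in KKO and 0.262 ± 0.0353 in WT cells at 48 h, and 0.0679 ± 0.00524 in KKO and 0.0675 ± 0.00405 in WT cells at 24 h (SD, n = 3 each), and its KKO and WT ranges overlapped at both times, at 0.286 to 0.422 in KKO and 0.23 to 0.3 in WT at 48 h. These ratios were not tested, since they combine values tested above.

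Across the 12 libraries the members' log2 CPM varied together, largely along with time. Pearson's r was -0.982 between Bcl2 and Bid, -0.943 between Bcl2 and Bcl2l1 and 0.885 between Bcl2 and Bak1, and Bik had the loosest ties. Among 8271 tested genes averaging at least 10 CPM, those most like Bcl2 were Espn (0.998) and Sdf4 (0.997), and Bid was most like Trnt1 (0.994). Bak1 was most like Acat2 (0.994) and Nsdhl (0.989), Bax like Gpn3 (0.983) and AI662270 (0.978), and Mcl1 like Trappc9 (0.976) and Oxa1l (0.971). Bcl2l1 stood with Shq1 (0.971) and Abt1 (0.967), Bad with Dscr3 (0.967) and Ppie (0.965), and Pmaip1 with Ncstn (0.963) and Rnf31 (0.95). Bcl2l11 stood with Ppp1r11 and Ddx19b (0.954 each), and Bik with Tbl1xr1 (0.772) and Ofd1 (0.763). The points share group and library, so these values are descriptions.

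The lists below name the pathway around the members, and were chosen with earlier results of these data known. Their counts stand beside 24.3% of all 13196 tested genes called at 48 h (12.4% higher and 11.9% lower). At 24 h that share was 2.33% (1.89% higher and 0.432% lower). A count near these shares is no result about its list. For calls that ended without 1 library, the range of adjusted p also covers the fit without the pair of libraries with mixed readings wherever that fit ended the call too, as it did for Bnip3l, Bcl2l15, Bbc3, Htra2, Birc5, Pim2, Mapk3, Stat5a and, at 24 h, Il7r.

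The 12 other BCL2 family genes that passed the filter, of 15 listed, moved both ways at 48 h, with 3 higher and 2 lower in KKO cells and a median log2 fold change of 0.25. The count of 5 was 3 without KKO replicate 1 or 3 or WT replicate 1 at 48 h. Bnip3l, which marks mitochondria for removal, had 329 ± 54.4 CPM in KKO and 214 ± 29.5 CPM in WT cells (log2 fold change 0.62, adjusted p = 0.0197), and its call was lost without KKO replicate 1 or 3 or WT replicate 1 or 2 at 48 h (0.50 to 0.61, adjusted p from 0.0518 to 0.106). Bcl2l15 was called at a low level, 0.65 ± 0.203 CPM in KKO and 0.0952 ± 0.0892 CPM in WT cells (2.70, adjusted p = 0.019), and lost its call without KKO replicate 1 or 3 or WT replicate 1 or 3 at 48 h (adjusted p from 0.0535 to 0.0886). The other calls, named after their values were seen, were 1 higher and 2 lower. Bcl2l2 (BCL-W, a survival gene) had 36.6 ± 4.89 CPM in KKO and 25.4 ± 1.43 CPM in WT cells (0.53, adjusted p = 0.00142). The lower genes were the near-identical copies Bcl2a1b and Bcl2a1d, also survival genes. Bcl2a1b had 49.8 ± 6.79 CPM in KKO and 69.3 ± 5.16 CPM in WT cells (-0.48, adjusted p = 0.00255). Bcl2a1d had 28.2 ± 4.98 CPM in KKO and 41.5 ± 1.04 CPM in WT cells (-0.56, adjusted p = 0.00148). Shared reads make the value of each copy uncertain. The calls of Bcl2l2, Bcl2a1b and Bcl2a1d held in every fit that left out 1 library. At 24 h 1 of the 12 was called: Bbc3 (PUMA, a BH3-only gene) at 11.3 ± 0.874 CPM in KKO and 14.9 ± 0.277 CPM in WT cells (-0.40, adjusted p = 0.0268). That call was lost without KKO replicate 1 or 2 or WT replicate 1, 2 or 3 at 24 h, which left 0 called (-0.41 to -0.34, adjusted p from 0.0668 to 0.196).

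Downstream of the mitochondria, 14 genes of the apoptosome and caspases were tested, of which 3 were higher and 3 lower in KKO cells at 48 h (median log2 fold change 0.003). The count of 6 was 3 without KKO replicate 1 or WT replicate 1 or 2 at 48 h, and 1 without the pair of libraries with mixed readings. Casp6, an executioner caspase, had 133 ± 34.6 CPM in KKO and 48.9 ± 7.25 CPM in WT cells (1.44, adjusted p = 0.00208). At 24 h 1 of the 14 was called, Htra2 (a mitochondrial protease), at 50.6 ± 1.99 CPM in KKO and 42.9 ± 0.831 CPM in WT cells (0.24, adjusted p = 0.0232). It lost its call without KKO replicate 1 or 3 or WT replicate 1, 2 or 3 at 24 h (adjusted p from 0.0608 to 0.152), which left 0 called, while 2 were called without KKO replicate 2 at 24 h.

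Of 7 tested inhibitors of caspases and death receptors, 0 were higher and 1 was lower at 48 h (median -0.03): Birc5 (survivin), also a gene of dividing cells, at 91.5 ± 7.98 CPM in KKO and 105 ± 4.39 CPM in WT cells (-0.20, adjusted p = 0.0348). At 24 h Birc5 was the 1 gene called and was higher, at 81.4 ± 2.37 CPM in KKO and 64.1 ± 1.91 CPM in WT cells (0.34, adjusted p = 0.00789). The 48 h call was lost without KKO replicate 1 or 3 or WT replicate 1 or 3 at 48 h or KKO replicate 3 at 24 h (adjusted p from 0.0505 to 0.197), and the 24 h call without KKO replicate 3 at 24 h (0.33, adjusted p from 0.0543 to 0.0683). Each left 0 called, while 4 inhibitors were called at 48 h without KKO replicate 2 at 48 h. Among 11 death receptors and adaptors, 2 were higher and 2 lower at 48 h (median -0.01), and 2 in all without KKO replicate 1 or 3 or WT replicate 1 or 2 at 48 h. Traf1, a TNF receptor adaptor, had 238 ± 43.4 CPM in KKO and 167 ± 10.2 CPM in WT cells (0.51, adjusted p = 0.00337), and Fas, a death receptor, had 21.5 ± 0.356 CPM in KKO and 27.6 ± 2.07 CPM in WT cells (-0.36, adjusted p = 0.00462). At 24 h 0 of the 11 were called by edgeR, DESeq2 or limma-voom, with 2 at an unadjusted p under 0.05 in edgeR.

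Of 8 genes for membrane proteins listed around BAX and BAK, not all of them of the outer mitochondrial membrane, 1 was called at 48 h (median 0.04). This was Vdac1, a channel protein, at 443 ± 35.3 CPM in KKO and 364 ± 23.6 CPM in WT cells (0.28, adjusted p = 0.013). The adjusted p was 0.0763 and 0.0512 in the fits without KKO replicate 1 or WT replicate 1 at 48 h. At 24 h 0 of 8 were called by edgeR, DESeq2 or limma-voom, and 0 had an unadjusted p under 0.05 in edgeR. Of 18 regulators of BCL2 family genes and proteins, 5 were higher and 1 was lower at 48 h (median 0.01). Leaving out a 48 h library gave 1 call for KKO replicate 1, 2 calls for KKO replicate 3 and 3 calls for WT replicate 1 or 2. Pim2, a kinase that phosphorylates BAD, had 361 ± 54.5 CPM in KKO and 274 ± 20.6 CPM in WT cells (0.40, adjusted p = 0.0102), and Mapk3 (ERK1), a kinase that targets BIM, had 56.5 ± 7.8 CPM in KKO and 43.6 ± 5.15 CPM in WT cells (0.37, adjusted p = 0.018). Pim2 lost its call without KKO replicate 1 or 3 at 48 h (adjusted p from 0.0515 to 0.0571), and Mapk3 without KKO replicate 1 or 3 or WT replicate 1 or 2 at 48 h (adjusted p from 0.0683 to 0.0971). At 24 h 2 of the 18 were higher: Pim1, a kinase related to Pim2, at 168 ± 12.6 CPM in KKO and 120 ± 6.98 CPM in WT cells (0.49, adjusted p = 0.000542), and Stat5a, a cytokine-activated transcription factor, at 305 ± 7.78 CPM in KKO and 239 ± 22.6 CPM in WT cells (0.35, adjusted p = 0.0106). Stat5a lost its call without KKO replicate 3 or WT replicate 2 or 3 at 24 h (adjusted p from 0.0708 to 0.0928), which left 1 called.

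Upstream, all 8 listed receptors of cytokines that sustain T cells passed at 48 h, where 24.3% of all tested genes were called. Of the 8, 5 were higher in KKO cells and 3 lower, with a median log2 fold change of 0.36. Without KKO replicate 1 at 48 h the count was 5. Il7r, a receptor chain through which IL-7 sustains BCL2 in resting T cells, had 53.7 ± 12.8 CPM in KKO and 21.9 ± 2.41 CPM in WT cells (1.30, adjusted p = 0.000163), and Il15ra, which presents IL-15, had 17.2 ± 3.85 CPM in KKO and 33.6 ± 1.02 CPM in WT cells (-0.97, adjusted p = 7.98e-05). At 24 h 4 of 8 were higher and 1 was lower (median 0.29). Il7r had 12 ± 0.91 CPM in KKO and 6.91 ± 0.973 CPM in WT cells (0.80, adjusted p = 0.0295), and lost its call without KKO replicate 1 or 3 or WT replicate 2 or 3 at 24 h (adjusted p from 0.098 to 0.128), each of which left 1 receptor called. Il6st, the signalling chain shared by receptors of the IL-6 family, had 56.1 ± 2.49 CPM in KKO and 76.5 ± 3.26 CPM in WT cells (-0.45, adjusted p = 0.000316). Without the pair of libraries with mixed readings, 7 of 8 receptors were called at 48 h and 1 at 24 h.

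Promoters were searched for the antioxidant response element bound by NRF2 (TGACNNNGC) and for a FOXO site (GTAAACA), on both strands, in RefSeq windows of GRCm38.p6 from 250 bases before to 50 after a gene start. The 8 members with windows had 12 of them, and the motifs do not overlap in any. The antioxidant response element occurred in 1 of 12, against 12.4% of all 32851 windows, and the FOXO site in 1 of 12, against 3.65%. Both matches are shown in capitals with the bases around them, on the strand of the gene. The first lies 127 bases before a start of Bcl2l1, within chr2:152828440-152828739 (minus strand), and reads on the opposite strand, and the second 227 bases before a start of Bcl2l11, within chr2:128125788-128126087 (plus strand).
Bcl2l1: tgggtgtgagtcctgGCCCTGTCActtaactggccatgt
Bcl2l11: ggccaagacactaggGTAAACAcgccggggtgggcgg

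The windows of Bcl2 and Mcl1, the members called at 48 h, held neither string. Binding was not measured in these libraries, and a match of letters is a description of the window.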

How the data were processed

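The authors deposited 1 table of RSEM expected counts per gene, unnormalised, for the mouse build mm10, with FastQC for read quality, per the submitters' processing notes. The series text names a human genome, while the symbols are those of mouse; aligner and annotation are not given in the sources used here. Another 6 columns of the table were not used, and 1 row named unknown (at most 2 counts) was left out.

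Expected counts were rounded and tested in R 4.3.3 with edgeR 4.0.16: TMM scaling, filterByExpr (13196 genes), 1 quasi-likelihood fit of all 12 libraries (8 residual degrees of freedom), 5 comparisons, 2-sided F tests and Benjamini-Hochberg adjustment over all tested genes, called under 0.05. The script was tested on simulated data. Totals were 17.8 to 32.6 M (mega) expected counts. Counting error weighs most on Bik (19 to 57 expected counts per library), and also on Pmaip1 (134 to 230) and Bad (194 to 370). Exon lengths and coding sequences came from GENCODE M21 and promoter windows from RefSeq. Some sequences and genes are not reported here.

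The members, lists, alternatives and naming rule were chosen with earlier results of these data known. Named were all members, Keap1, up to 2 called genes with the largest change per list and genotype comparison, and the 2 genes most correlated with each member (log2 CPM with a prior count of 2). Alternatives were other scalings, DESeq2 1.42.0, limma-voom (limma 3.58.1), other filters, fewer libraries, a replicate block and a threshold of 0.01. The labels do not say what replicate numbers mark. Deviations of same-numbered libraries of both times had r of 0.126, 0.103 and 0.343 in WT, with 4 of 6 best matches by number. In KKO they had r of 0.0287, 0.0852 and 0.0408, with 2 of 6. Same-numbered WT libraries also had the same sex-linked reading at both times, so a shared source and a shared sex cannot be told apart there. KKO replicates 1 and 3 swapped sex-linked readings between the times. The KKO numbers, and the block built on them, may therefore not mark the same source.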

Additional observations from a re-analysis of the deposited data

How the results depend on the processing

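For KKO over WT at 48 h, the 2 members called became 4 with upper-quartile scaling (Bcl2, Mcl1, Bax and Bad), 1 with no low-count filter, with only the 6 libraries compared, with the replicate block and with the male share as a covariate, 0 at an adjusted p under 0.01 and 0 without the 2 libraries holding both Xist and Y-linked transcripts. Leaving out each library gave 0 to 4: 0 without KKO replicate 1 or 3, and 4 without KKO replicate 2 (Bcl2, Mcl1, Bcl2l1 and Bid), all at 48 h. The difference of effects had 0 calls, 2 by DESeq2, 1 with the male share, and 0 to 4 when a library was left out. At 24 h the count was 0 in every setting. Time counts held, at 9 to 10 in KKO and 6 to 7 in WT when a library was left out, and at 9 and 7 with the replicate block, which ended the Mcl1 call at 48 h (adjusted p = 0.074) and no other member's call. Deviations of same-numbered KKO and WT libraries had r of -0.249, 0.106 and 0.135 at 48 h, with 2 of 6 best matches by number. Mcl1 was also lost with no filter (0.0963), with only the 6 libraries compared (0.13) and with the male share (0.0745).

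Of 1140 member values under alternatives, 1094 kept direction and call, and 8 changed sign, none of them called. Bcl2 at 24 h was -0.067 with the male share and -0.02 without KKO replicate 3 of 24 h (range without 1 library -0.02 to 0.111). Bik at 24 h was -0.02 by limma-voom, -0.096 with the male share and -0.333 without the same library (range -0.333 to 0.322). In the difference of effects, Bcl2l11 was -0.027 without WT replicate 2 of 24 h (range -0.027 to 0.136) and Pmaip1 was 0.019 without WT replicate 1 of 48 h (range -0.238 to 0.019). Bik over time in WT was 0.049 without WT replicate 2 of 48 h (range -0.505 to 0.049). The cause was not tested. Over all genes, 3209 calls at 48 h became 1536 with only the libraries compared, 1363 at the stricter threshold, 1386 without the 2 libraries of both sexes and 1405 to 5362 without 1 library. At 24 h, 307 became 488 by DESeq2, 524, 128, 107 and 132 to 505 in the same order of settings, and the 552 calls of the difference became 1120 by DESeq2, 1390 with the male share, 85 at the stricter threshold, 54 without the 2 libraries and 143 to 3217 without 1. Among the members, depth limits Bik most, at about 1 CPM.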
